A study of Mus musculus with 18 samples.

Results

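The genes described here are the 7 genes of MHC class II antigen presentation named H2-Aa, H2-Ab1, H2-Eb1, Cd74, Ciita, H2-DMa and H2-DMb1 in the deposited table, chosen by symbol from its 26538 genes. All 7 had a row, and all 7 passed the filter on low values. RNA was sequenced from 18 mouse side tumours, which were resected without being treated themselves after another tumour of the animal had been ablated. The 6 groups of 3 tumours were cryo-thermal therapy with an antibody against PD-1 (written cryo-thermal + anti-PD-1), cryo-thermal therapy alone, radiofrequency ablation with anti-PD-1, radiofrequency ablation alone, cryoablation with anti-PD-1 and cryoablation alone. Cryoablation destroys tissue by freezing, radiofrequency ablation by heating, and the name of cryo-thermal therapy joins the cold and the heat; PD-1 is an inhibitory receptor of T cells. Every group had an ablated tumour, so each pair of groups that was tested sets one ablation against another or anti-PD-1 against no antibody. Tumours of mice without ablation were not analysed here. The tumour line, the mouse strain, sex and age, the antibody dose and the day of resection are not given in the sources used here. Labels number the tumours of a group 1 to 3 without saying whether they came from separate animals, so p-values cover the spread among these tumours, which may be technical.

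MHC class II molecules are pairs of an alpha and a beta chain that show peptides from ingested proteins to CD4 T cells. Dendritic cells, macrophages and B cells carry them by default, and interferon gamma induces them in many other cells. New pairs are held empty and escorted by the invariant chain (Cd74), which is then cut down to a fragment that the H2-DM pair exchanges for a peptide. CIITA, a co-activator that does not bind DNA itself, switches class II genes on by docking on factors bound at an X box and a Y box that class II promoters share.

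The promoter letters of 3 of the genes are shown because CIITA acts at these boxes. In the RefSeq promoter table (GRCm38.p6), which was matched by symbol, 4 of the 7 genes had an entry, H2-Aa, H2-Eb1, H2-DMa and H2-DMb1. The stretches are read 5′ to 3′ on the strand of the gene and end at the base before its annotated start, at chr17:34287824-34288003 on the minus strand for H2-Aa, chr17:34305687-34305866 on the plus strand for H2-Eb1 and chr17:34153011-34153190 on the plus strand for H2-DMb1. Capitals mark the letters GNAACT, as in an X box, and TGATTGG, as in a Y box.
H2-Aa: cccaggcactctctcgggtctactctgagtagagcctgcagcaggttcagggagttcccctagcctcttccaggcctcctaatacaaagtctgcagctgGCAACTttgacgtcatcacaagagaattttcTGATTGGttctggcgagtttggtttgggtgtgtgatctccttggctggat
H2-Eb1: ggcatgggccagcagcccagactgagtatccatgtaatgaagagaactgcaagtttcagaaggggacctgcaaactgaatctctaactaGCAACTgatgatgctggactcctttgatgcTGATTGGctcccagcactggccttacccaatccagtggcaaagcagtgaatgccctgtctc
H2-DMb1: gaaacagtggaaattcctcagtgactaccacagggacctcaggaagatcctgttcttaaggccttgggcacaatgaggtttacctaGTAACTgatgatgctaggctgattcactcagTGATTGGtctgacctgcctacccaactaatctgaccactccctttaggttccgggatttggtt
The marked letters stood 25 bases apart in H2-Aa, 24 in H2-Eb1 and 25 in H2-DMb1. Over the 250 bases before each of 32851 annotated starts, on both strands, GNAACT was present in 37.3% and TGATTGG in 7.23%. The ordered pair with 20 to 30 bases between was present in 35 of these windows, 0.1065%. The letters were chosen after the sequences had been read, and the 2 windows of H2-DMa held neither set of letters. Among other class II chain genes, the window of H2-Eb2 held the pair and those of H2-DMb2, H2-Oa and H2-Ob did not.

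FPKM, the unit of the deposited values, is the number of fragments of a gene per kilobase of its length, scaled to the mapped fragments of the library, so levels of different genes can be set side by side. Low values fell on whole steps of 1 fragment, and the steps gave relative depths between 0.9832 and 1.0195, in a search limited to ratios close to 1. On these estimates the 18 libraries were nearly equally deep, at about 37400000 to 38800000 fragments if GENCODE vM21 lengths apply. The total depth was read from a peak that held 144 of 1129 genes. On that footing Ciita rested on about 50 to 1361 fragments per tumour, H2-DMa on about 213 to 1103 and Cd74 on about 4975 to 73718. Some tumours stood apart in RNA of other cell types. The summed FPKM of 5 erythroid genes (globins and Alas2) was 557.5 to 772 after cryoablation alone, and 23.6 to 316 in the cryo-thermal and anti-PD-1 groups. After radiofrequency ablation alone it was 36.6 in replicate 2 and 992 in replicate 3. Hair follicle and skin genes were high in cryo-thermal + anti-PD-1 replicate 1, with a summed FPKM of 343, and in cryoablation + anti-PD-1 replicates 1 and 2, with 164 and 189.

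Ciita was the lowest of the 7 genes in every tumour but varied the most. It measured 2.10, 3.19 and 3.775 FPKM in cryo-thermal + anti-PD-1 tumours, 1.60, 1.315 and 1.28 in radiofrequency + anti-PD-1 tumours and 1.65, 0.958 and 0.539 in cryoablation + anti-PD-1 tumours. Without the antibody it measured 2.74, 1.94 and 1.82 FPKM after cryo-thermal therapy, 0.820, 2.30 and 0.6315 after radiofrequency ablation and 0.136, 0.404 and 0.443 after cryoablation. All 6 cryo-thermal tumours were above every other tumour except radiofrequency replicate 2, the 3 tumours after cryoablation alone were the lowest of the 18, and the highest tumour was 27.7 times the lowest. Of the exon bases of Ciita, 3.45% overlap Dexi on the opposite strand, and the strand setting of the counting was not given, so a small share of its reads could come from Dexi.

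H2-Aa encodes the alpha chain and H2-Ab1 the beta chain of the I-A molecule. H2-Ab1 measured 232, 403 and 495 FPKM in cryo-thermal + anti-PD-1 tumours, 144, 134 and 172 in radiofrequency + anti-PD-1 tumours and 217, 85.3 and 66.95 in cryoablation + anti-PD-1 tumours. Without the antibody it measured 314, 228.7 and 165 FPKM after cryo-thermal therapy, 87.4, 232.5 and 72.05 after radiofrequency ablation and 28.9, 56.1 and 41.0 after cryoablation. Every cryo-thermal tumour, with or without the antibody, was above every tumour after cryoablation alone, whereas radiofrequency replicate 2 and cryoablation + anti-PD-1 replicate 1 stood well above the other 2 tumours of their groups. H2-Aa averaged 399 ± 118 FPKM in cryo-thermal + anti-PD-1 tumours, 178.5 ± 42.7 in radiofrequency + anti-PD-1 tumours and 134 ± 83.3 in cryoablation + anti-PD-1 tumours (SD, n = 3 each). Without the antibody H2-Aa averaged 291 ± 90.8, 174 ± 120.7 and 55.8 ± 12.8 FPKM after cryo-thermal therapy, radiofrequency ablation and cryoablation. The lowest H2-Aa value was 43.2 FPKM, after cryoablation alone, and the highest 504 FPKM, with cryo-thermal + anti-PD-1. H2-Eb1, the beta chain of the I-E molecule, ran at a lower level, from 19.1 FPKM after cryoablation alone to 323 FPKM with cryo-thermal + anti-PD-1. The H2-Eb1 means kept the order of the groups seen for H2-Ab1, at 244.5 ± 93.0 FPKM with cryo-thermal + anti-PD-1 and 25.1 ± 8.06 FPKM after cryoablation alone (SD, n = 3 each).

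Cd74 was the most abundant of the 7 genes in every tumour. It measured 516, 955 and 1161 FPKM in cryo-thermal + anti-PD-1 tumours, 322, 326 and 411 in radiofrequency + anti-PD-1 tumours and 479.8, 183 and 165 in cryoablation + anti-PD-1 tumours. Without the antibody it measured 726, 541 and 393 FPKM after cryo-thermal therapy, 219.5, 549.6 and 178 after radiofrequency ablation and 77.3, 138 and 95.7 after cryoablation. The tumours after cryoablation alone did not overlap with any other group, and the same 2 tumours, radiofrequency replicate 2 and cryoablation + anti-PD-1 replicate 1, again stood above their groups.

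The H2-DM pair, whose alpha chain is H2-DMa and one of whose beta chains is H2-DMb1, had the narrowest range, with the highest tumour 5.19 times the lowest for H2-DMa and 5.57 times for H2-DMb1. H2-DMb1 measured 54.1, 73.8 and 82.9 FPKM in cryo-thermal + anti-PD-1 tumours, 35.75, 28.75 and 36.5 in radiofrequency + anti-PD-1 tumours and 51.5, 21.7 and 24.0 in cryoablation + anti-PD-1 tumours. Without the antibody it measured 65.7, 59.3 and 45.5 FPKM after cryo-thermal therapy, 26.1, 46.6 and 20.35 after radiofrequency ablation and 14.9, 19.3 and 17.3 after cryoablation. The H2-DMb1 values after cryoablation alone were again below those of every other tumour. H2-DMa averaged 6.97 ± 1.80 FPKM with cryo-thermal + anti-PD-1 and 2.89 ± 1.47 FPKM with cryoablation + anti-PD-1 (SD, n = 3 each), and 5.35 ± 1.01 FPKM after cryo-thermal therapy and 1.785 ± 0.186 FPKM after cryoablation alone (SD, n = 3 each). Of the exon bases of H2-DMa, 10.4% overlap Brd2 on the opposite strand, and H2-DMb1 has a close paralog, H2-DMb2, so reads could be split or shared between these genes.

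The order of the group means was the same for 6 of the 7 genes, with cryo-thermal + anti-PD-1 first, then cryo-thermal, radiofrequency + anti-PD-1, radiofrequency, cryoablation + anti-PD-1 and cryoablation last. For H2-DMb1 the cryoablation + anti-PD-1 mean, 32.4 FPKM, was above the radiofrequency mean, 31.0 FPKM. Neighbours in this order overlapped for all 7 genes between cryo-thermal + anti-PD-1 and cryo-thermal, between radiofrequency + anti-PD-1 and radiofrequency, and between radiofrequency and cryoablation + anti-PD-1. Cryo-thermal and radiofrequency + anti-PD-1 tumours overlapped for H2-Aa, H2-Ab1 and Cd74 and not for the other 4 genes, where 4.78% of the 12587 genes tested had every cryo-thermal value above every radiofrequency + anti-PD-1 value. These groups differ in both the ablation and the antibody, as do radiofrequency and cryoablation + anti-PD-1, and neither pair was tested. Cryoablation + anti-PD-1 and cryoablation tumours overlapped only for H2-DMa, and 13.6% of the genes tested had every cryoablation + anti-PD-1 value above every cryoablation value.

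**Figure D1:**
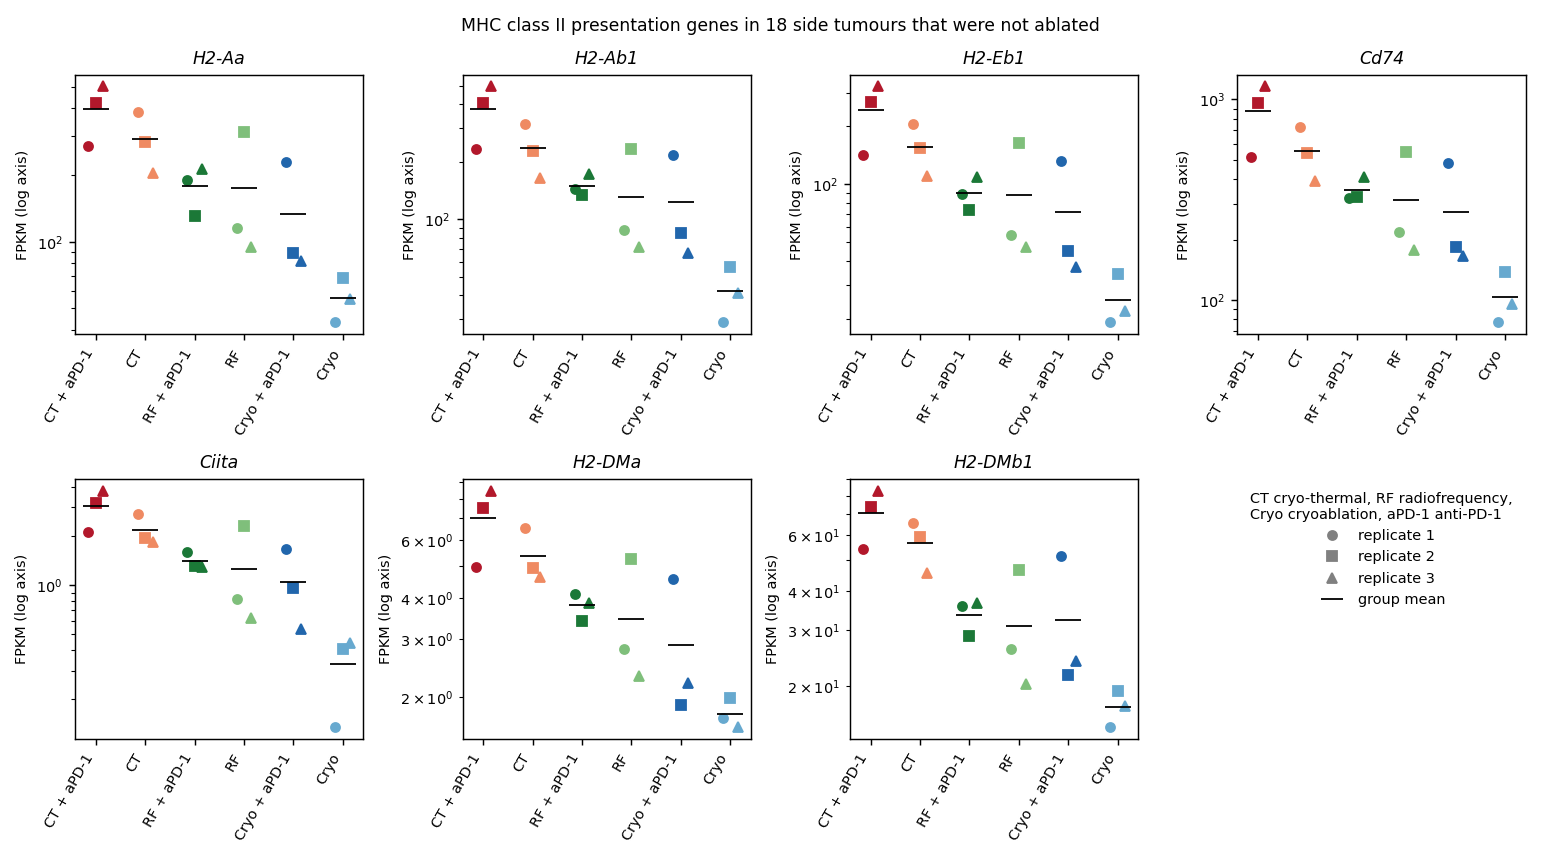
FPKM of the 7 genes in each tumour on a log axis, with a panel per gene, a symbol per replicate and a bar at the group mean (CT cryo-thermal, RF radiofrequency, Cryo cryoablation, aPD-1 anti-PD-1). In each panel the cryo-thermal groups stand at the left and have the highest means, cryoablation alone has the lowest mean at the right, and radiofrequency replicate 2 and cryoablation + anti-PD-1 replicate 1 lie above the rest of their groups.

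The first question was whether the 7 genes differed between side tumours after cryo-thermal therapy and after either single-temperature ablation when anti-PD-1 was given. With the antibody, all 7 genes rose in cryo-thermal + anti-PD-1 tumours relative to cryoablation + anti-PD-1 tumours, by limma on log2(FPKM + 1) with p-values adjusted over all 12587 genes tested and a threshold of 0.05. The group means differed by 2.17 to 3.42 times, and every cryo-thermal + anti-PD-1 value was above every cryoablation + anti-PD-1 value in all 7 genes. Of all genes tested, 3.24% were called higher in this comparison and 15.5% had every value above. The largest difference in log2(FPKM + 1) was that of H2-Eb1, at 1.91 ± 0.49 (SE, limma adjusted p = 0.0428), and Ciita, the co-activator, differed by 0.99 ± 0.25 (SE, limma adjusted p = 0.0397). H2-DMa, which differed by 1.07 ± 0.25, had the lowest adjusted p of the 7 in this limma fit, 0.0318, and H2-Ab1, which differed by 1.73 ± 0.46, the highest, 0.0478. The median difference of the 7 genes was 1.69, against 0.009 over all genes tested. These calls lay close to the threshold. With a pseudocount of 0.1 H2-Ab1 and Ciita did not pass, where 3.59% of all genes were called in either direction. With cryoablation + anti-PD-1 replicate 2 or 3 or cryo-thermal + anti-PD-1 replicate 2 or 3 left out, 0 of the 7 genes passed limma. The same held without the filter on low values or when only both groups were fitted. Of all genes, 0.0159% to 0.135% were called with 1 of these tumours left out, 0.678% without the filter and 0 with both groups only. Without the 3 tumours rich in hair follicle RNA, which leaves 1 cryoablation + anti-PD-1 tumour assumed to vary like the other groups, all 7 passed. In bulk tumours fewer cells that carry a transcript and less of it per cell cannot be told apart.

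Markers of immune cells were measured in the same tumours. The summed FPKM of 3 genes carried by all leukocytes was 101.5 to 115 in cryo-thermal + anti-PD-1 tumours and 58.8 to 89.4 in cryoablation + anti-PD-1 tumours, with 0 of the 3 called, and differences in log2(FPKM + 1) of 0.55 to 0.68. The T cell list, 5 genes, had 4 called higher, with summed FPKM of 28.6 to 30.03 in cryo-thermal + anti-PD-1 tumours and 4.15 to 17.65 in cryoablation + anti-PD-1 tumours. Of 9 dendritic cell genes 5 passed the filter, with differences in log2(FPKM + 1) of -0.11 to 1.27, and 1, Irf8, was called higher. The summed FPKM of the 9 was 26.9 to 39.6 in cryo-thermal + anti-PD-1 tumours and 10.3 to 24.6 in cryoablation + anti-PD-1 tumours. Their mean log2(FPKM + 1) overlapped, at 1.209 to 1.394 in cryo-thermal + anti-PD-1 tumours and 0.804 to 1.265 in cryoablation + anti-PD-1 tumours. Of 10 macrophage and monocyte genes 0 were called, with summed FPKM of 490.1 to 664 in cryo-thermal + anti-PD-1 tumours and 359.6 to 542 in cryoablation + anti-PD-1 tumours. The 7 B cell genes summed to at most 0.451 FPKM in cryo-thermal + anti-PD-1 tumours and 0.592 FPKM in cryoablation + anti-PD-1 tumours, and 0 of them passed the filter. The part of these cell types in the differences of the 7 genes was not tested.

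Against radiofrequency + anti-PD-1, 0 of the 7 genes passed limma in cryo-thermal + anti-PD-1 tumours, where 0.818% of all genes were called higher. All 7 had an unadjusted p under 0.05, as did 17.2% of all genes in either direction, and in all 7 every cryo-thermal + anti-PD-1 value was above every radiofrequency + anti-PD-1 value, as in 11.8% of all genes. The differences in log2(FPKM + 1) ran from 0.71 ± 0.25 for H2-DMa to 1.36 ± 0.49 for H2-Eb1 (SE), and the limma adjusted p-values from 0.1 for H2-DMb1 to 0.197 for H2-Aa. All 7 passed limma with array weights, which give variable tumours a smaller weight, or with the erythroid level as a covariate. Of all genes, 17.1% were called in either direction with array weights and 3.88% with the covariate. Between radiofrequency + anti-PD-1 and cryoablation + anti-PD-1 tumours 0 of the 7 genes passed limma and 0 had an unadjusted p under 0.05, where 0.0% of all genes were called higher and 5.85% had an unadjusted p under 0.05. Their means differed by 1.04 to 1.34 times, and all 7 overlapped, where 6.03% of all genes had every radiofrequency + anti-PD-1 value above.

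The same question was asked of the ablations without the antibody. All 7 genes rose in cryo-thermal tumours relative to cryoablation tumours, with means that differed by 3.00 to 6.61 times and with 0 of the 7 overlapping. Of all genes tested 8.01% were called higher and 17.7% had every cryo-thermal value above every cryoablation value. The 3 chains and Cd74 differed most in log2(FPKM + 1), H2-Eb1 by 2.59 ± 0.49 (SE, limma adjusted p = 0.00607) and Cd74 by 2.40 ± 0.45 (SE, limma adjusted p = 0.00569). H2-DMb1 differed by 1.66 ± 0.30 (SE), with the lowest limma adjusted p of the 7, 0.00555, and H2-DMa by 1.18 ± 0.25, with the highest, 0.00884. Ciita differed by 1.25 ± 0.25 in log2(FPKM + 1), and since its values after cryoablation alone were under 1 FPKM, the added 1 makes this smaller than the 6.61 times between its means. The median difference of the 7 genes was 2.34, against -0.01 over all genes. With the erythroid level of each tumour as a covariate 0 of the 7 genes passed limma, with differences of 0.54 to 1.22, and 0 of all genes passed. Without cryo-thermal replicate 1, 6 passed and H2-DMa did not, where 3.65% of all genes were called in either direction.

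Several marker lists moved with this comparison. All 5 erythroid genes were called lower in cryo-thermal tumours, as were 6.96% of all genes, with summed FPKM of 23.6 to 210.4 in cryo-thermal tumours and 557.5 to 772 in cryoablation tumours, and 0 of the 5 were at 0. Of 5 neutrophil genes 3 passed the filter and 2, S100a8 and S100a9, were called lower, with differences of -3.29 and -3.65 in log2(FPKM + 1), with summed FPKM of 4.645 to 36.9 in cryo-thermal tumours and 103.4 to 257.5 in cryoablation tumours. All 3 leukocyte genes were called higher, with differences in log2(FPKM + 1) of 0.73 to 1.14 and summed FPKM of 86.8 to 141 in cryo-thermal tumours and 55.2 to 67.35 in cryoablation tumours. All 5 T cell genes were called higher, with summed FPKM of 9.45 to 29.9 in cryo-thermal tumours and 2.08 to 2.93 in cryoablation tumours. Of the 5 dendritic cell genes that passed the filter, Itgax, Ccr7 and Irf8 were called higher, and the 5 differed by -0.15 to 1.60 in log2(FPKM + 1). The list summed to 16.0 to 33.0 FPKM in cryo-thermal tumours and 6.03 to 9.26 FPKM in cryoablation tumours. Of 10 macrophage and monocyte genes C1qa, C1qb, Fcgr1 and Ly6c2 were called higher and Mertk, a receptor for dying cells, lower, with summed FPKM of 491 to 842 in cryo-thermal tumours and 352 to 438 in cryoablation tumours. The 7 B cell genes summed to 0.526 to 1.55 FPKM in cryo-thermal tumours and 0.0931 to 0.285 FPKM in cryoablation tumours, and 0 passed the filter. Of the other lists, 1 plasma cell gene, Jchain, was called higher, and 1 fibroblast gene, Pdgfra, and 1 epithelial gene, Cdh1, lower. Jchain measured 4.77, 4.06 and 0.637 FPKM in cryo-thermal tumours and passed the filter only through them. The other plasma cell gene that passed the filter differed by -0.14 in log2(FPKM + 1). The part of the neutrophil, leukocyte, T cell, dendritic cell and macrophage lists in the differences of the 7 genes was not tested. The covariate fit cannot tell the erythroid level apart from the treatment, since the erythroid sums of these groups did not overlap.

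Cryo-thermal against radiofrequency tumours, and radiofrequency against cryoablation tumours, gave 0 calls by limma among the 7 genes, where 0.00794% of all genes were called higher in each comparison. In the first, 4 of the 7 had an unadjusted p under 0.05 (13.6% of all genes), the means differed by 1.55 to 1.83 times, and all 7 overlapped, with radiofrequency replicate 2 at the level of the cryo-thermal tumours. Of all genes 8.08% had every cryo-thermal value above every radiofrequency value. In the second, all 7 had an unadjusted p under 0.05 (15.1% of all genes), and every radiofrequency value was above every cryoablation value in all 7, as in 10.6% of all genes. The radiofrequency means were 1.81 to 3.82 times the cryoablation means, and the differences in log2(FPKM + 1) ran from 0.63 ± 0.25 for H2-DMa to 1.59 ± 0.49 for H2-Eb1 (SE), with limma adjusted p-values of 0.168 to 0.272. With array weights 1 of the 7 passed limma in the first comparison and 4 in the second. Of all genes, 10.9% and 4.54% were then called in either direction. An exact test of 3 tumours against 3 on a single gene cannot give a 2-sided p below 0.1.

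**Figure D2:**
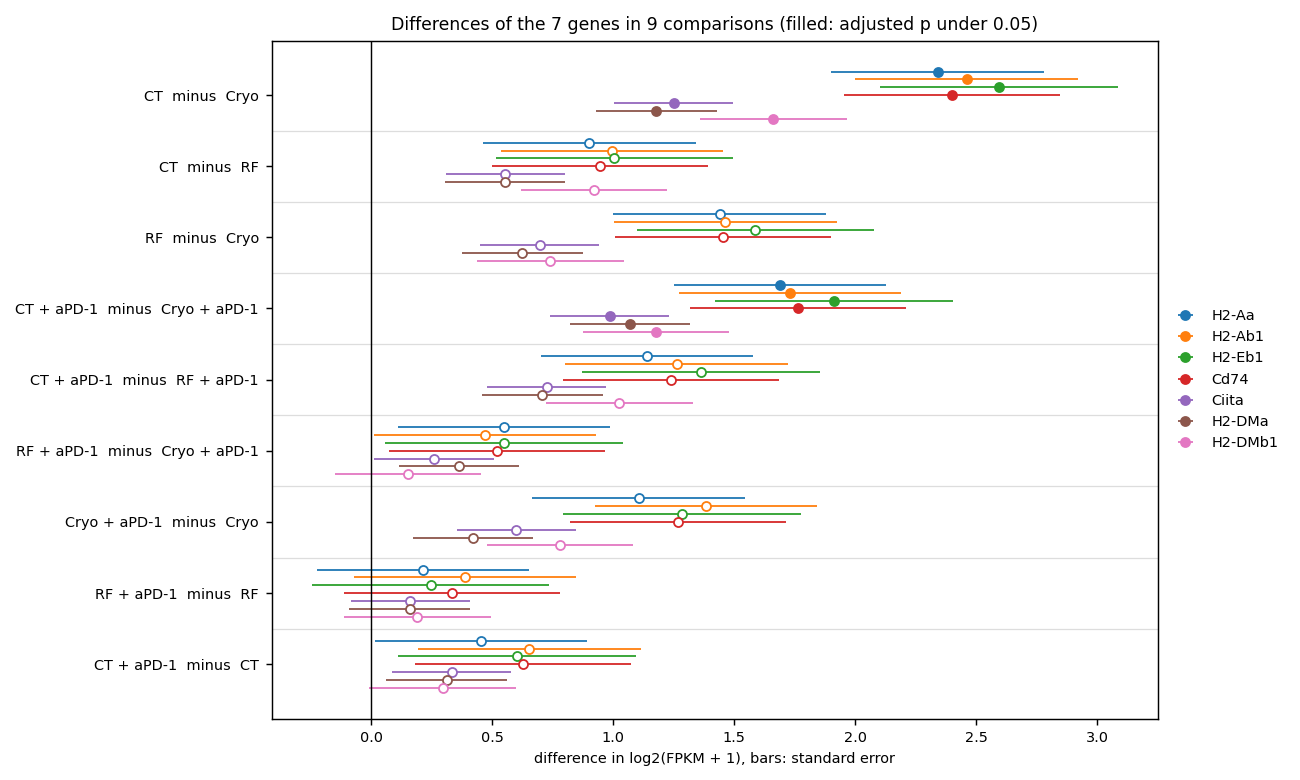
Difference in log2(FPKM + 1) of each gene in 9 comparisons, with the standard error as a bar and filled symbols where the limma adjusted p was under 0.05. All 7 symbols are filled for cryo-thermal minus cryoablation, from 1.18 to 2.59, and for the same pair with anti-PD-1, from 0.99 to 1.91, and none elsewhere.

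The other question was what anti-PD-1 added to each ablation. Within cryoablation, 0 of the 7 genes passed limma, where 1.79% of all genes were called higher, and 6 had an unadjusted p under 0.05, as did 24.4% of all genes. The cryoablation + anti-PD-1 means were 1.62 to 3.20 times the cryoablation means, and H2-Ab1 differed by 1.38 ± 0.46 in log2(FPKM + 1) (SE, limma adjusted p = 0.09), the lowest adjusted p of the 7. Without the 3 tumours rich in hair follicle RNA, which leaves 1 cryoablation + anti-PD-1 tumour, H2-Ab1 differed by 0.71, and with the erythroid level as a covariate 6 of the 7 genes differed by -0.21 to -0.01. The erythroid sums, 53.0 to 104 FPKM in cryoablation + anti-PD-1 tumours and 557.5 to 772 FPKM in cryoablation tumours, did not overlap.

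Within radiofrequency ablation, 0 of the 7 genes passed limma and 0 had an unadjusted p under 0.05, where 0.0318% of all genes were called higher and 11.6% had an unadjusted p under 0.05. The means of radiofrequency + anti-PD-1 tumours were 1.022 to 1.148 times those of radiofrequency tumours, and all 7 overlapped, where 7.66% of all genes had every radiofrequency + anti-PD-1 value above. Cd74 measured 353 ± 50.1 FPKM in radiofrequency + anti-PD-1 tumours and 316 ± 204 FPKM in radiofrequency tumours (SD, n = 3 each). Without radiofrequency replicate 2 the difference of H2-Aa was 0.74 in log2(FPKM + 1), and without radiofrequency replicate 3 it was -0.12. Within cryo-thermal therapy 0 of the 7 genes passed limma and 0 had an unadjusted p under 0.05, where 0.246% of all genes were called higher and 13.0% had an unadjusted p under 0.05. The cryo-thermal + anti-PD-1 means were 1.24 to 1.60 times the cryo-thermal means, and all 7 overlapped, where 10.6% of all genes had every cryo-thermal + anti-PD-1 value above. With array weights 6 of the 7 passed, where 42.4% of all genes were called in either direction.

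The effect of anti-PD-1 itself was compared between ablations. The effect with cryo-thermal therapy minus that with cryoablation, in log2(FPKM + 1), ran from -0.73 ± 0.65 for H2-Ab1 to -0.11 ± 0.35 for H2-DMa (SE), and 0 of the 7 passed limma, where 0.167% of all genes did in either direction. Set against radiofrequency ablation the differences were 0.11 to 0.36, with 0 passing limma, where 0.0% of all genes did. In both, 0 of the 7 had an unadjusted p under 0.05, as did 13.4% and 7.23% of all genes. The sign was stable in neither. The first differences were 0.00 to 0.36 without the 3 tumours rich in hair follicle RNA, which leaves 1 cryoablation + anti-PD-1 tumour. With the erythroid covariate they were 0.62 to 1.20, and the erythroid genes themselves had a median difference of 4.68 in this comparison. The second differences were -0.29 to -0.12 without radiofrequency replicate 2.

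The 7 genes varied together from tumour to tumour. Over the 18 tumours Pearson's r between pairs of genes was 0.968 to 0.998 in 21 pairs, and r between their deviations from the group means was 0.886 to 0.994, lowest for Ciita with H2-DMb1. The tumours of a group share their treatment, and these values describe the set. When each gene was standardised over the 18 tumours and the 7 were averaged, cryo-thermal + anti-PD-1 replicates 3 and 2 stood highest, at 1.66 and 1.40 SD, and the 3 cryoablation tumours lowest, at -1.14 to -1.73 SD. Radiofrequency replicate 2, at 0.74 SD, and cryoablation + anti-PD-1 replicate 1, at 0.51 SD, ranked 4 and 7 of 18, among the cryo-thermal tumours. In both of these tumours all 7 genes were above their own mean over the 18, and in the other 2 tumours of each group 0 were. The T cell sum was 9.82 FPKM in radiofrequency replicate 2 against 3.94 and 5.13 FPKM in the other 2 of its group, and 17.65 FPKM in cryoablation + anti-PD-1 replicate 1 against 6.07 and 4.15 FPKM. In the same order, the leukocyte sum was 86.2 against 63.2 and 86.65 FPKM, and 89.4 against 58.8 and 69.35 FPKM. The macrophage and monocyte sum was 584.6 against 375.9 and 607.5 FPKM, and 542 against 359.6 and 406 FPKM. The dendritic cell sum was 18.3 against 12.8 and 11.4 FPKM, and 24.6 against 11.9 and 10.3 FPKM. The erythroid sum was 36.6 FPKM in radiofrequency replicate 2 against 386 and 992 FPKM in the other 2 of its group, and 54.0 FPKM in cryoablation + anti-PD-1 replicate 1 against 53.0 and 104 FPKM.

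Several ratios between the genes within a tumour spanned less than the levels. Cd74 ran at 2.14 to 2.675 times H2-Ab1 in FPKM over all 18 tumours, and H2-Eb1 at 0.527 to 0.7025 times H2-Ab1. The ratio of the I-A chains, H2-Aa over H2-Ab1, ran from 0.976 to 1.495. It averaged 1.08 ± 0.08 with cryo-thermal + anti-PD-1 and 1.24 ± 0.01 with cryo-thermal therapy, 1.18 ± 0.18 with radiofrequency + anti-PD-1 and 1.32 ± 0.02 with radiofrequency ablation, and 1.11 ± 0.10 with cryoablation + anti-PD-1 and 1.36 ± 0.13 with cryoablation (SD, n = 3 each). The mean ratio was lower with anti-PD-1 in each ablation, without overlap in the cryo-thermal tumours and with overlap in the other 2 ablations, and this was not tested. H2-DMb1 ran at 8.42 to 12.1 times H2-DMa. The ratio of H2-Ab1 to H2-DMb1 spanned more, 1.94 to 5.97, and averaged 5.24 ± 0.86 with cryo-thermal + anti-PD-1 and 2.41 ± 0.48 after cryoablation alone (SD, n = 3 each).

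**Figure D3:**
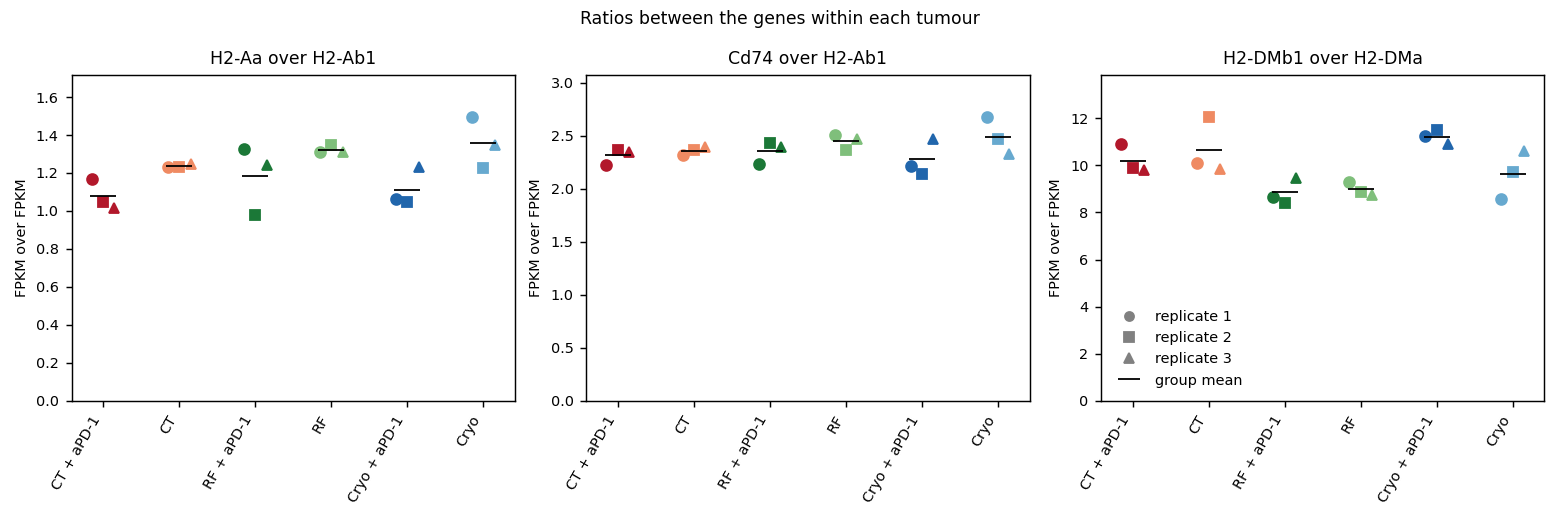
FPKM of one gene over FPKM of another in each tumour, on linear axes from 0, with a symbol per replicate and a bar at the group mean. H2-Aa over H2-Ab1 stays between 0.976 and 1.495, Cd74 over H2-Ab1 between 2.14 and 2.675 and H2-DMb1 over H2-DMa between 8.42 and 12.1.

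Other genes of the class II pathway were read from the same fits, by list. As a background, 8.01% of all genes tested were called higher in cryo-thermal relative to cryoablation tumours. In the same comparison with the antibody the share was 3.24%. Of the other class II chains, H2-Ea was not matched to any deposited gene, and H2-DMb2, a second DM beta chain, was the one that passed the filter. H2-DMb2 rose in cryo-thermal tumours relative to cryoablation tumours by 0.68 ± 0.21 in log2(FPKM + 1) (SE, limma adjusted p = 0.041), at 2.79 ± 0.52 FPKM against 1.37 ± 0.44 FPKM (SD, n = 3 each). With the antibody H2-DMb2 differed by 0.38 ± 0.21 between cryo-thermal + anti-PD-1 and cryoablation + anti-PD-1 tumours (SE, limma adjusted p = 0.329). Of 9 antigen processing genes, 3 rose in cryo-thermal relative to cryoablation tumours and 1 in cryo-thermal + anti-PD-1 relative to cryoablation + anti-PD-1 tumours, and 0 fell. Their median differences were 0.41 and 0.32. Ctss, the cathepsin that trims the invariant chain, rose in both, by 1.03 ± 0.30 and 1.17 ± 0.30 (SE, limma adjusted p = 0.0338 and 0.0427), and Ifi30, a lysosomal thiol reductase, rose in the first by 0.74 ± 0.20 (limma adjusted p = 0.0221). Marchf1, a ubiquitin ligase that removes class II from the surface, rose in the first by 0.47 ± 0.14 (limma adjusted p = 0.0381).

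The 7 factors that bind or assist at the X and Y boxes, Rfx5, Rfxap, Rfxank, Nfya, Nfyb, Nfyc and Creb1, gave 0 calls in either direction in these 2 comparisons, with median differences of -0.11 and -0.05 in log2(FPKM + 1). Rfx5 was at 7.61 ± 1.44 FPKM in cryo-thermal + anti-PD-1 tumours, 5.57 ± 0.22 in cryoablation + anti-PD-1 tumours, 6.83 ± 0.40 in cryo-thermal tumours and 6.18 ± 0.62 in cryoablation tumours (SD, n = 3 each). Of 7 genes of the interferon gamma axis reported here 3 rose in each comparison and 0 fell, and the 3 were Ifng, the cytokine, Irf1, a transcription factor that it induces, and Socs1, its feedback inhibitor. Its receptor and kinase genes Ifngr1, Ifngr2, Jak1 and Jak2 did not pass. The share of all genes called higher was 3.24% with the antibody and 8.01% without it. Ifng differed by 1.66 ± 0.26 with the antibody and 1.04 ± 0.26 without it (SE, limma adjusted p = 0.0101 and 0.0165). Ifng passed the filter on low values only through the cryo-thermal groups, where it was high. Without the filter both of these calls held. Ifng measured 3.56, 3.66 and 2.62 FPKM in cryo-thermal + anti-PD-1 tumours, against 1.05, 0.109 and 0.0858 FPKM in cryoablation + anti-PD-1 tumours. It measured 2.19, 1.18 and 0.455 FPKM in cryo-thermal tumours, against 0.108, 0 and 0.0436 FPKM in cryoablation tumours. Neither pair of groups overlapped. Ifng also rose in cryo-thermal + anti-PD-1 relative to radiofrequency + anti-PD-1 tumours, by 1.34 ± 0.26 (SE, limma adjusted p = 0.0362), where 0 of the 7 class II genes passed. That call of Ifng was lost after rescaling, with a pseudocount of 0.1, without the filter, and on leaving out any 1 of these 6 tumours other than radiofrequency + anti-PD-1 replicate 1.

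Of 5 genes of partners and co-stimulation, 4 rose in cryo-thermal relative to cryoablation tumours, Cd4, the co-receptor of class II, and the co-stimulatory Cd80, Cd86 and Cd40, and 2 rose with the antibody, Cd40 and Lag3, an inhibitory receptor of T cells that binds class II. Of 4 genes of class I presentation all 4 rose in cryo-thermal relative to cryoablation tumours and 2 with the antibody, H2-K1 and Nlrc5, the class I counterpart of CIITA. Beside these lists, 8.01% of all genes were called higher without the antibody and 3.24% with it. Nlrc5 differed by 1.24 ± 0.26 with the antibody and 1.27 ± 0.26 without it (SE, limma adjusted p = 0.0241 and 0.00804). The median differences of the class I list, 0.89 with and 1.07 without the antibody, were below those of the 7 class II genes, 1.69 and 2.34, a difference between lists that was not tested. Of the 8 pathway genes given here as higher with the antibody, 0 passed limma when only both groups were fitted or without cryoablation + anti-PD-1 replicate 2 or 3 or cryo-thermal + anti-PD-1 replicate 2, 1 (Ifng) passed without cryo-thermal + anti-PD-1 replicate 3, and 2 (Ifng and Socs1) without the filter. The share of all genes called was 0 with both groups only, 0.0159% to 0.135% with 1 of these tumours left out and 0.678% without the filter. Of the 15 higher without the antibody, 0 passed with the erythroid covariate, 1 (Nlrc5) without cryo-thermal replicate 1, 2 (Cd40 and Nlrc5) without cryoablation replicate 1, and 7 to 9 without cryo-thermal replicate 2, without cryoablation replicate 2 or 3, without the filter, or when only both groups were fitted. In that order, 0, 3.65%, 4.27% and 4.88% to 11.3% of all genes were called in either direction.

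**Figure D4:**
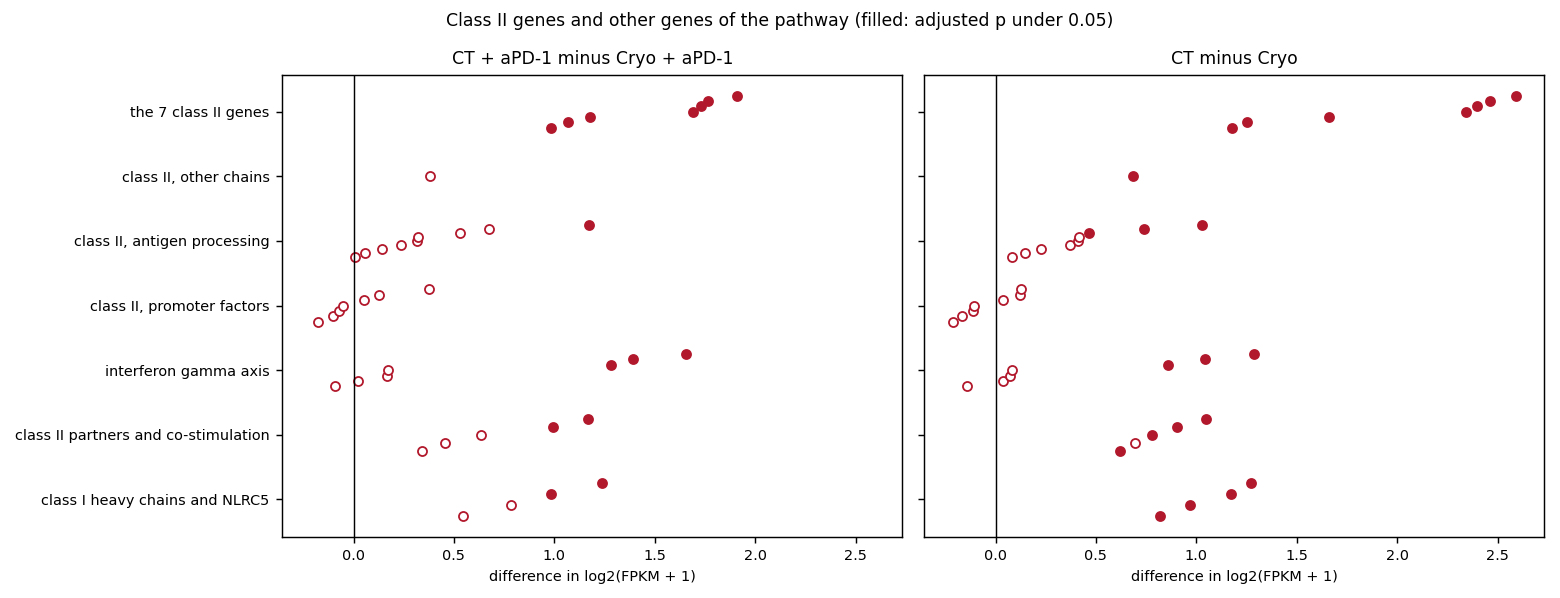
Difference in log2(FPKM + 1) of the genes reported from 7 lists, a point per gene that passed the filter, for cryo-thermal + anti-PD-1 minus cryoablation + anti-PD-1 and for cryo-thermal minus cryoablation, filled where the limma adjusted p was under 0.05. The 7 class II genes reach 1.91 and 2.59, and the promoter factors lie between -0.18 and 0.38 with the antibody and between -0.21 and 0.13 without it, with no filled point.

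The genes whose levels ran most like the 7 were ranked over the 18 tumours by Pearson's r between log2(FPKM + 1) and the mean standardised level of the 7. Among the other 12580 genes that passed the filter the median r was 0.00, and 182 had an r over 0.9. Of the 10 highest, 9 are given here, Plbd1 (0.98), Gbp8 (0.972), Sema4a (0.967), Batf2 (0.967), Psmb9 (0.966), Nlrc5 (0.965), H2-T23 (0.964), Irf8 (0.964) and Psmb8 (0.963). Spearman's rho of these 9 was 0.934 to 0.975, and r without the 2 tumours farthest from the median was 0.947 to 0.978. Within groups, r of the deviations from the group means was 0.84 for Irf8 to 0.931 for Plbd1. Plbd1, a phospholipase B-like protein, measured 2.58 to 24.6 FPKM over the 18 tumours with a median of 11.1, and Psmb8 and Psmb9, inducible subunits of the immunoproteasome, 45.9 to 231 and 10.05 to 109 FPKM. Irf8, a transcription factor of the dendritic cell and monocyte lineages, measured 3.20 to 21.4 FPKM. All of these values share the libraries and the grouping of the 18 tumours.

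**Figure D5:**
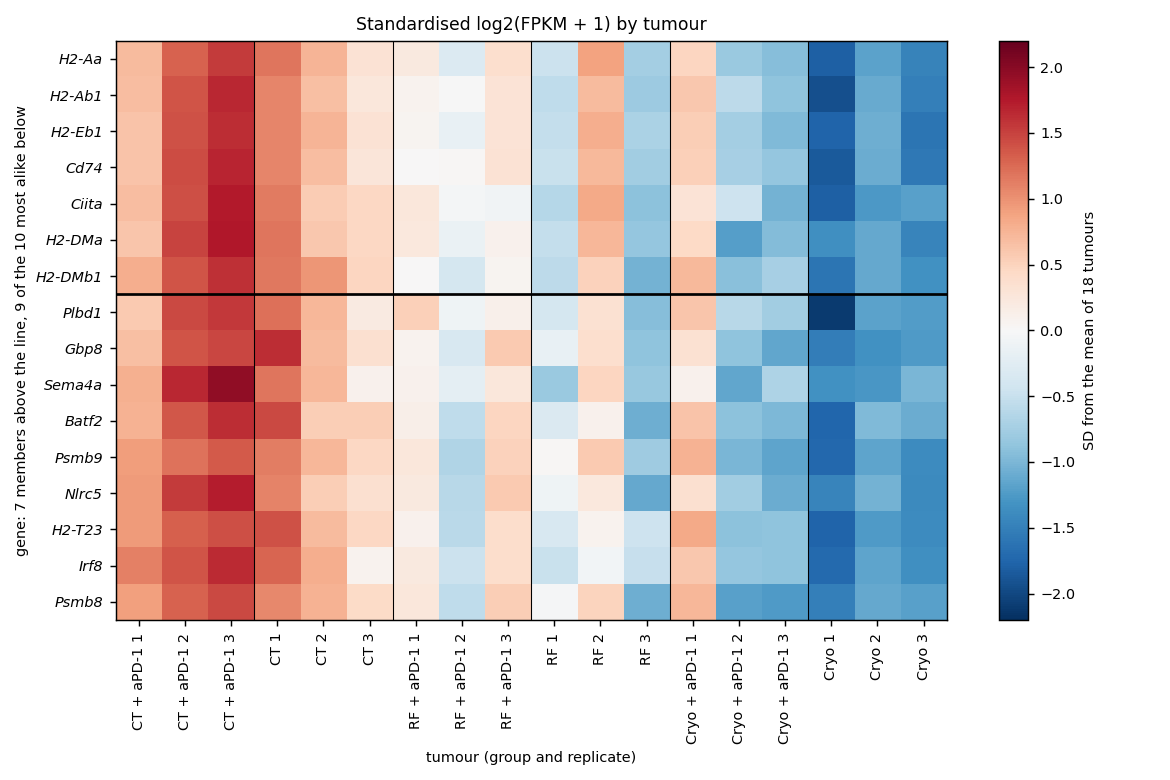
Log2(FPKM + 1) of the 7 genes and of 9 of the 10 genes most like them, standardised over the 18 tumours (columns, by group and replicate), in SD from the mean of each gene. Cryo-thermal + anti-PD-1 replicates 2 and 3 have the highest mean level of the 7 genes, 1.40 and 1.66 SD, and the 3 cryoablation tumours the lowest, -1.14 to -1.73 SD, and the 9 other genes run in much the same way.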

How the data were processed

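RNA of 18 mouse tumours in 6 groups of 3 was compared. FPKM values were made and deposited by the authors. RNA was extracted with TRIzol and silica columns and made into libraries with the VAHTS Universal V6 kit, per the labels' protocols. HTSeq 0.11.2 is a tool listed by the submitters' processing notes. The aligner, genome build, annotation, strand setting and filters are not given in the sources used here. Depth was read from the steps of 19169 low values in 2165 genes, of which 100.0% were whole multiples within 0.05 steps. Genes with a mean of at least 0.5 FPKM over all tumours were kept (12587 of 26538) and log2(FPKM + 1) was fitted with limma 3.58.1 in R 4.3.3, with a mean per group over all 18 tumours, an intensity trend, 2-sided tests and Benjamini-Hochberg adjustment over all genes tested, at 0.05, in 11 comparisons. The fit was tested on simulated data. Other steps ran in Python 3.11.15 with numpy 2.4.6, pandas 2.3.3, matplotlib 3.10.9 and scipy 1.17.1. The text names all 7 genes, up to 4 called genes of each other list per comparison with the largest change, and the 10 genes most like the 7, of which 1, also on a pathway list, is not reported here; single genes given beside these, such as Rfx5, were added after their values were seen. Of 123 list entries 121 matched the table. The members and lists were chosen with earlier results of these data known. Alternatives were a rescaled sum, a pseudocount of 0.1, no filter, array weights, a replicate block, a fit of only the groups compared, the erythroid level as a covariate, 3 tumours rich in hair follicle RNA left out, and each replicate left out.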

Additional observations from a re-analysis of the deposited data

How the results depend on the processing

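The 7 calls for cryo-thermal against cryoablation held under each alternative except the erythroid covariate (0 of 7), and 6 to 7 passed when 1 tumour was left out. Where the 7 held, 4.88% to 43.4% of all genes were called in either direction, the most with array weights. The share was 0 with the covariate and 3.65% to 21.3% with 1 tumour left out. For cryo-thermal + anti-PD-1 against cryoablation + anti-PD-1, 7 became 0 without the filter, which tests more genes, and 0 when only both groups were fitted. Of all genes, 0.678% were called without the filter and 0 with both groups only. The count ran from 0 to 7 when 1 tumour was left out. It stayed at 7 without cryoablation + anti-PD-1 replicate 1 or cryo-thermal + anti-PD-1 replicate 1, where 8.36% and 4.8% of all genes were called. Without any 1 of the other tumours of these groups it was 0, where 0.0159% to 0.135% of all genes were called. With a pseudocount of 0.1 it was 5, where 3.59% of all genes were called. With the replicate number as a block the count was 1, where 3.15% of all genes were called. The block changed the count of no other comparison. Same-numbered tumours of different groups had a median r of their deviations of -0.001 over 45 pairs (13 above 0.1), so the numbers mark no pairing. For cryo-thermal + anti-PD-1 against radiofrequency + anti-PD-1, 0 became 7 with array weights, 7 with the erythroid covariate and 1 without the tumours rich in hair follicle RNA. Array weights also gave 1 (cryo-thermal against radiofrequency), 4 (radiofrequency against cryoablation), 2 (cryoablation + anti-PD-1 against cryoablation) and 6 (cryo-thermal + anti-PD-1 against cryo-thermal). In that order they called 10.9%, 4.54%, 15.7% and 42.4% of all genes in either direction. For cryo-thermal + anti-PD-1 against radiofrequency + anti-PD-1 the share was 17.1% with array weights and 3.88% with the erythroid covariate. The cause was not tested beyond the alternatives' own construction.

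All reversed signs were in comparisons where 0 of the 7 genes had passed. With the erythroid covariate, cryoablation + anti-PD-1 minus cryoablation was -0.10 for H2-Aa, -0.083 for H2-Eb1, -0.014 for Cd74, -0.11 for Ciita, -0.21 for H2-DMa and -0.019 for H2-DMb1. Radiofrequency + anti-PD-1 minus radiofrequency was -0.41 for H2-Aa, -0.29 for H2-Ab1, -0.46 for H2-Eb1, -0.32 for Cd74, -0.20 for Ciita, -0.17 for H2-DMa and -0.22 for H2-DMb1. The anti-PD-1 effect with cryo-thermal therapy minus that with cryoablation was 1.01, 1.08, 1.20, 1.13, 0.71, 0.76 and 0.62 for H2-Aa, H2-Ab1, H2-Eb1, Cd74, Ciita, H2-DMa and H2-DMb1, and without the tumours rich in hair follicle RNA 0.13, 0.26, 0.36, 0.26, 0.29, 0.30 and 0.00; with array weights it was 0.11 for H2-DMa. Leaving out 1 tumour gave -0.073 to 0.532 for H2-DMb1 between radiofrequency + anti-PD-1 and cryoablation + anti-PD-1. For radiofrequency + anti-PD-1 minus radiofrequency it gave -0.12 to 0.74 for H2-Aa, -0.084 to 0.803 for H2-Eb1, -0.034 to 0.474 for Ciita, -0.026 to 0.429 for H2-DMa and -0.059 to 0.519 for H2-DMb1. For the anti-PD-1 effect it gave -0.29 to 0.18 for H2-DMa against cryoablation, and against radiofrequency -0.29 to 0.57 for H2-Aa, -0.25 to 0.59 for H2-Ab1, -0.20 to 0.71 for H2-Eb1, -0.20 to 0.64 for Cd74, -0.14 to 0.37 for Ciita, -0.12 to 0.35 for H2-DMa and -0.223 to 0.355 for H2-DMb1.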

Other observations

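The chains of the H2-O pair, an inhibitor of H2-DM known from B cells and some dendritic cells, and H2-Eb2 were near the bottom of the scale and below the filter. H2-Oa averaged 0.7005 ± 0.425 FPKM with cryo-thermal + anti-PD-1 and 0.358 ± 0.06165 FPKM with cryoablation + anti-PD-1, and 0.571 ± 0.2015 FPKM with cryo-thermal therapy and 0.151 ± 0.0952 FPKM with cryoablation (SD, n = 3 each). H2-Ob averaged 0.2875 ± 0.2045 FPKM with cryo-thermal + anti-PD-1 and 0.304 ± 0.258 FPKM with cryoablation + anti-PD-1, and 0.388 ± 0.1185 FPKM with cryo-thermal therapy and 0.151 ± 0.0281 FPKM with cryoablation (SD, n = 3 each). H2-Eb2 was at most 0.0575 FPKM in any tumour. The B cell list had its highest sum, 3.69 FPKM, in radiofrequency replicate 3, where the 7 class II genes ranked 14 of 18.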
